A study of Mus musculus with 24 samples.

Results

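The genes of gluconeogenesis and glucose handling were followed in fasted mouse liver. They are 9 of the 35275 genes of the read count table, chosen by name: Pcx, Pck1, Pck2, Fbp1, G6pc, Slc37a4, Slc2a2, Pklr and Ppargc1a. RNA was sequenced from the livers of male C57BL/6 mice, 8 to 10 weeks of age, all taken after 24 h of fasting, as 24 libraries in 6 groups of 4. The design addressed Pparα signaling and ketogenesis after the loss of Tsc1, a brake on the mTorc1 kinase complex, and of Cpt2, the enzyme that completes the entry of long-chain fatty acids into mitochondria.

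The control group is labelled wild type, while the methods of the study describe control mice as littermates with floxed Tsc1 and Cpt2 alleles. Tsc1 L-/- livers lack Tsc1, Cpt2 L-/- livers lack Cpt2, and DKO livers (Tsc1Cpt2 L-/-) lack both. The deletions were made by Cre under the albumin promoter, which acts in hepatocytes, and whether other cells of the liver keep both genes was not tested. Ppara KO mice carry a knockout of Ppara, the nuclear receptor that drives fatty acid oxidation genes in fasting, and Cpt2 Ppara KO mice (Cpt2L-/- Ppara KO) combine it with the loss of Cpt2 in liver. How the Ppara knockout was made is not given in the sources used here. The methods of the study give sex and background only for the control, Tsc1 L-/-, Cpt2 L-/- and DKO groups. The labels number the libraries of a group as replicates and give each a separate identifier, without stating outright that each came from its own animal, so p-values measure the spread between these samples.

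During a fast the liver first uses its glycogen and then makes glucose from lactate, alanine and other amino acids, and glycerol. Pcx carboxylates pyruvate to oxaloacetate in mitochondria, and phosphoenolpyruvate carboxykinase (PEPCK) turns oxaloacetate into phosphoenolpyruvate, in the cytosol as Pck1 and in mitochondria as Pck2. Fbp1 removes a phosphate from fructose 1,6-bisphosphate, and G6pc frees glucose from glucose 6-phosphate in the endoplasmic reticulum, to which Slc37a4 carries its substrate. Slc2a2 (Glut2) passes glucose across the hepatocyte membrane, Pklr is the liver pyruvate kinase of the opposite, glycolytic direction, and Ppargc1a (Pgc1α) is a coactivator of the fasting program.

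Each gene is given in CPM (counts scaled to the size of the library, with the TMM method of edgeR over all libraries), with libraries in the order 1 to 4. Differences are log2 fold changes with their standard error (SE) from the quasi-likelihood test of edgeR, and a gene was called where the p-value, adjusted by Benjamini-Hochberg over all genes tested, was under 0.05. All 9 genes passed the filter on low counts. Total counts per library ranged from 14470968 to 20371204, and the least abundant of the 9 genes, Pck2, still had between 50 and 776 reads.

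The libraries fell into 2 sets of 12. Cd1d2, Rps3a3, Hist1h2bq, Hist1h2al and Gm6472, chosen after their values were seen, were expressed in the control group and in both groups without Tsc1 (Rps3a3 at 33.3 to 96.0 CPM) and near 0 in Cpt2 L-/-, Ppara KO and Cpt2 Ppara KO livers (Rps3a3 at 0.205 to 3.40 CPM). The comparisons of Cpt2 L-/- with control, DKO with Cpt2 L-/- and Ppara KO with control, and both interactions, cross the 2 sets, so that in them the set and the genotype cannot be told apart. The other 5 comparisons lie within a set. Fits of the 12 libraries of one set, added after seeing the data, gave the same call and direction for all 45 member values of those 5 comparisons.

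Tsc1 was lower in Tsc1 L-/- livers (24.5 ± 4.55 CPM, SD, n = 4) and DKO livers (16.4 ± 1.24) than in control (38.4 ± 1.33). Ppara was at 13.2 to 44.6 CPM in Ppara KO and 26.2 to 89.9 CPM in Cpt2 Ppara KO livers, against 216 to 277 CPM in control. The Cpt2 label could not be checked this way: the gene was at 79.9 to 105 CPM in Cpt2 L-/-, 80.6 to 118 CPM in DKO and 88.2 to 104 CPM in control livers, and a count over a whole gene does not show whether an exon is missing. Library 1 of the Cpt2 Ppara KO group stood apart from its group, with Cpt2 at 123 CPM, where the other 3 were at 31.4 to 39.1 CPM, and Ppara at 89.9 CPM. Whether it holds the labelled genotype cannot be told from these counts, so that each value of the Cpt2 Ppara KO group rests on a label in doubt for 1 of its 4 libraries. Ppara KO library 1 also stood apart in Cpt2, at 94.8 CPM where the other 3 were at 39.8 to 51.4 CPM. Its Ppara, at 44.6 CPM, was the highest of the Ppara KO group, and what this means for its genotype was not tested. All 7 hepatocyte markers were present in every group. They summed to 67508 to 89761 CPM in control, 46829 to 74250 CPM in Tsc1 L-/-, 37595 to 60793 CPM in Cpt2 L-/- and 31830 to 38926 CPM in DKO livers, so that every Cpt2 L-/- and DKO library was below every control library, and their part in the falls described here was not tested. The share of counts from mitochondrial genes was 3.78% to 5.04% in control, 4.91% to 6.82% in Tsc1 L-/-, 5.45% to 8.06% in Cpt2 L-/-, 5.08% to 6.41% in DKO, 4.38% to 6.24% in Ppara KO and 5.20% to 7.32% in Cpt2 Ppara KO livers, and its part was not tested either. For the hepatocyte markers, Ppara KO livers, at 63179 to 95275 CPM, overlapped control, and Cpt2 Ppara KO livers were at 46122 to 69664 CPM. Fewer cells of a type and less RNA per cell cannot be told apart in these bulk libraries.

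In control livers, per length, Pck1 was the highest of the 9 genes at 1877 ± 145 FPKM (deposited counts scaled by gene length and library total; SD, n = 4), followed by Fbp1 at 774 ± 25.7 FPKM and Pcx at 275 ± 22.1 FPKM. G6pc (140.3 ± 33.3 FPKM), Slc37a4 (115 ± 19.3 FPKM) and Slc2a2 (90.4 ± 24.8 FPKM) lay in the middle, Pklr was at 33.9 ± 12.8 FPKM, and Ppargc1a (3.44 ± 1.58 FPKM) and Pck2 (0.980 ± 0.133 FPKM) were the lowest. G6pc and Slc37a4, and Slc37a4 and Slc2a2, were neighbors whose SDs overlapped. Pck1 and Fbp1 were first and second in all 6 groups, and Pck2, last in control and Tsc1 L-/- livers, stood above Ppargc1a in the other 4. When the 6 groups were put in order of their mean for each gene, neighbors in the order overlapped in all but 1 case, that of G6pc in control and Cpt2 Ppara KO livers. Neighbors in this order are the groups with the closest means, so overlap between them says little about groups further apart. The share over all genes was not computed.

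**Figure D1:**
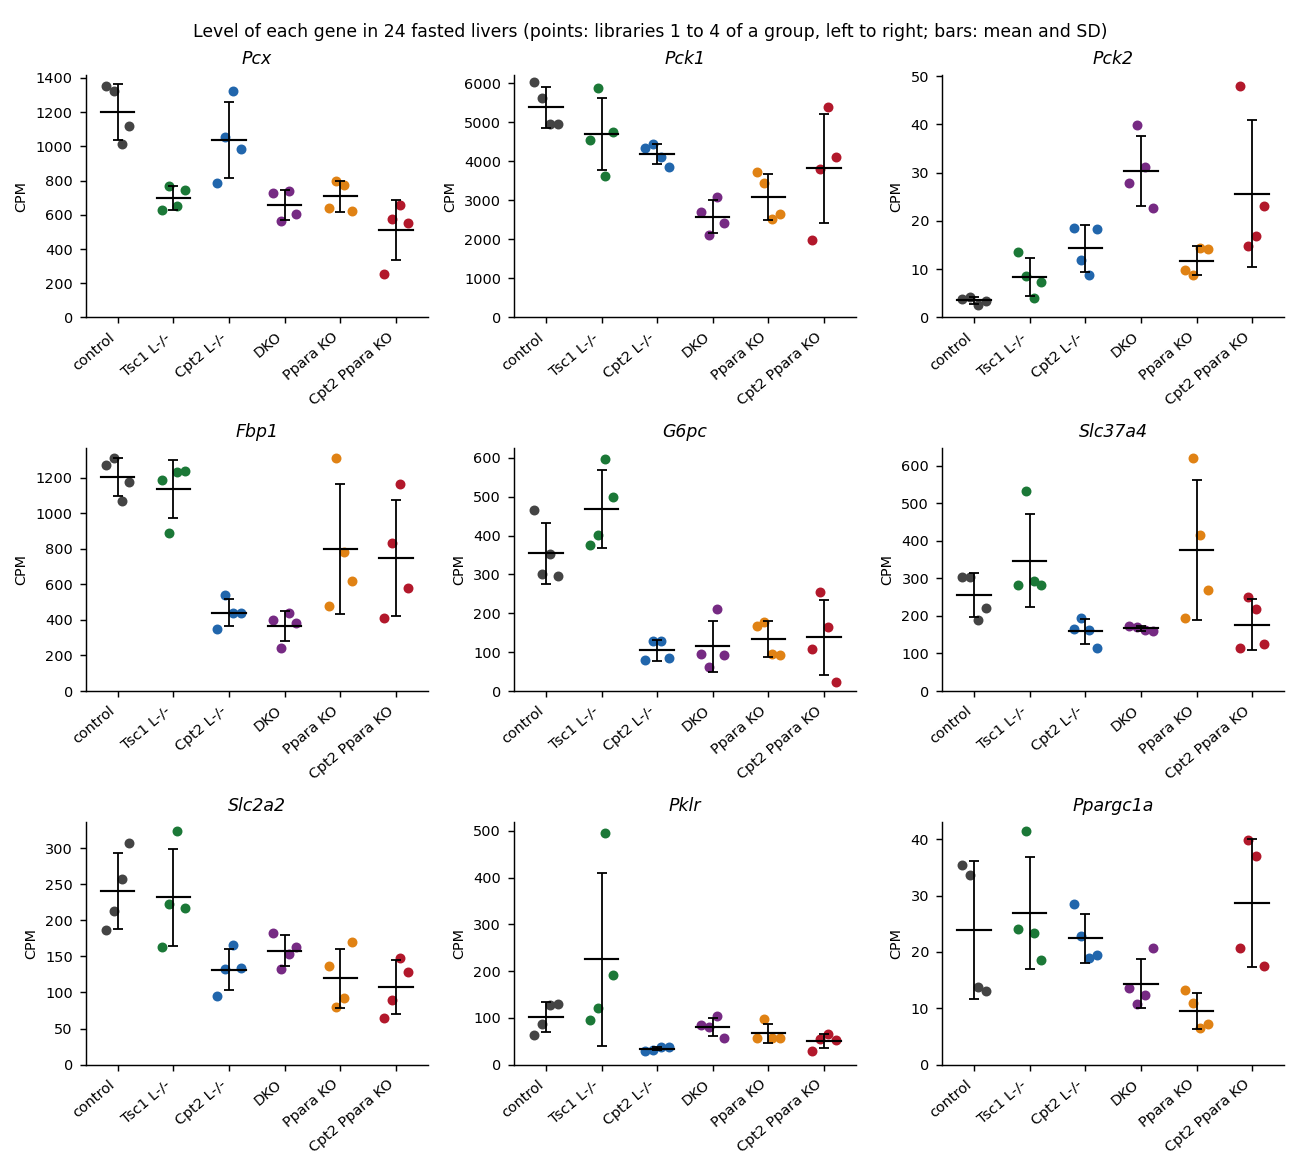
Level of each of the 9 genes in CPM (vertical axes from 0) in the 4 libraries of each group (points), with the mean and SD (bars). Pck2 is lowest in control (2.57 to 4.34 CPM) and highest in DKO (22.7 to 39.9 CPM) and in library 1 of Cpt2 Ppara KO (48.0 CPM). Fbp1 and G6pc are low in Cpt2 L-/- and DKO livers, and G6pc is also low in Ppara KO and Cpt2 Ppara KO livers.

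The 9 genes were tested in 8 pairs of groups, which share groups with each other and are not independent. Of the 72 tests, 35 were called (48.6%), 27 lower and 8 higher in the group named first. All but 1 of the 8 rises were of Pck2, and the other was of Ppargc1a in Cpt2 Ppara KO against Ppara KO livers. Between Tsc1 L-/- and control, 6.64% of all genes tested were called (4.16% higher and 2.48% lower), and 1 of the 9 rose and 1 fell. Between Cpt2 L-/- and control, 31.0% were called (16.2% higher and 14.9% lower), and 1 of the 9 rose and 5 fell. Between DKO and control, with 36.4% called (19.3% higher and 17.1% lower), 1 rose and 6 fell. The median of the 9 genes was −0.69 and −0.72 in these last 2 comparisons, while that of all genes was −0.02 and 0.02. With limma on FPKM the median of all genes in DKO against control was 0.12 and 0.17 (pseudocounts of 1 and 0.1), and 72.2% and 72.0% of the calls were higher in place of 53.1%. The share of calls that were higher also moved by over 10 percentage points with limma (pseudocount of 1) in Tsc1 L-/- against control (73.8% in place of 62.7%) and Cpt2 L-/- against control (65.9% in place of 52.2%).

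Between DKO and Cpt2 L-/-, 18.3% of all genes were called (10.9% higher and 7.40% lower), and 1 of the 9 rose and 2 fell. Between DKO and Tsc1 L-/-, with 32.2% called (16.9% higher and 15.2% lower), 1 rose and 6 fell. Between Ppara KO and control, 29.0% were called (15.9% higher and 13.2% lower), and 1 of the 9 rose and 5 fell. Against control, loss of Cpt2, of both Tsc1 and Cpt2, or of Ppara thus gave mostly falls among the 9, with Pck2 as the rise each time. Between Cpt2 Ppara KO and Cpt2 L-/-, 18.4% were called (10.3% higher and 8.01% lower), and 1 of the 9 fell. Between Cpt2 Ppara KO and Ppara KO, 25.5% were called (12.9% higher and 12.6% lower), and 2 of the 9 rose and 1 fell. The share of calls that were higher was 73.3% with limma (pseudocount of 1) in place of 59.5% in DKO against Cpt2 L-/-, 66.0% in place of 52.6% in DKO against Tsc1 L-/-, and 65.5% (pseudocount of 0.1) in place of 50.7% in Cpt2 Ppara KO against Ppara KO.

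The counts of all genes called, against which those of the 9 are read, moved by over 1.5 times when 1 library was left out in 4 of these comparisons. Tsc1 L-/- against control gave 906 genes, and 583 without control library 3. DKO against Cpt2 L-/- gave 2494, and 1546 without Cpt2 L-/- library 3 and 1428 without DKO library 2. Cpt2 Ppara KO against Cpt2 L-/- gave 2499, and 1149, 1239 and 1418 without Cpt2 L-/- library 3, Cpt2 L-/- library 4 and Cpt2 Ppara KO library 2. Cpt2 Ppara KO against Ppara KO gave 3475, and 2142 without Ppara KO library 3 and 1728 without Cpt2 Ppara KO library 1.

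The promoters of Pck2, which rose, and of Pck1 and G6pc, which fell, are shown here, since these genes moved in opposite directions. The windows run from 250 bases before to 50 bases after the annotated start and were taken from RefSeq (GRCm38.p6), where all 9 genes had at least 1 window. Capitals mark matches to the letters searched, on either strand.
Pck2, chr14:55540016-55540315, plus strand: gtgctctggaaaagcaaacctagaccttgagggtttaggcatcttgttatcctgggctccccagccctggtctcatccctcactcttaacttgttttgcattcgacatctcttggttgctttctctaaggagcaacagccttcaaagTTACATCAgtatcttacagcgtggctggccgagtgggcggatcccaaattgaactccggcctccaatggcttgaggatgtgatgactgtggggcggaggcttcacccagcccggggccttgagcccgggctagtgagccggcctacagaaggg
Pck1, chr2:173152823-173153122, plus strand: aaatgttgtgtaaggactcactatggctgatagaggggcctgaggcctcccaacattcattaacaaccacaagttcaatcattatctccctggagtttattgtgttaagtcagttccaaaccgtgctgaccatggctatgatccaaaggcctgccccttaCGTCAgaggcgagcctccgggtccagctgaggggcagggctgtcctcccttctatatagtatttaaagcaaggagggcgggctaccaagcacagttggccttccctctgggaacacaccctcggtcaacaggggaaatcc
G6pc, chr11:101367466-101367765, plus strand: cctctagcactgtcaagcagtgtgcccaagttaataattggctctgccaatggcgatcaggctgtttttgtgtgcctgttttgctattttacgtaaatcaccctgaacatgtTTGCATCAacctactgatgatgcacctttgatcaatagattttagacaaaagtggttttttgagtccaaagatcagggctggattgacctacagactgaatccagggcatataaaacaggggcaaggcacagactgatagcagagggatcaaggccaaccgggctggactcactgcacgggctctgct
In Pck2 and in G6pc the capitals are TGATGNAA, the core letters of a C/EBP-ATF response element, both on the opposite strand and starting 103 and 138 bases before the start. These letters were in 3.97% of 32817 promoter windows of the same length. In Pck1 the capitals are TGACG on the opposite strand, the core of a cAMP response element, 90 bases before the start, and 20.8% of the windows held it. The same core was found in Ppargc1a and in 2 of the 3 windows of Slc37a4, and an E box (CACGTG, in 7.15% of windows) in 1 of the 2 windows of Pcx. The full element TGACGTCA (1.79% of windows), a FoxO site GTAAACA (3.65%), the DR1 repeat bound by Pparα (0.0396%) and a glucocorticoid response element (0.475%) were found in no window of the 9 genes, which says only that these letters are not there. The core TGACG lies within the full element. Letters alone do not show binding.

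Pck2, on chromosome 14 from 55540266 to 55550017 (GRCm38, plus strand), encodes the mitochondrial PEPCK. It was at 3.80, 4.34, 2.57 and 3.43 CPM in control livers. In Tsc1 L-/- livers it was at 13.6, 8.60, 4.08 and 7.25 CPM, and in Cpt2 L-/- livers at 18.5, 11.9, 8.70 and 18.3 CPM. Each Cpt2 L-/- library was above each control library, while the lowest Tsc1 L-/- library lay within the control range. The highest group mean was that of DKO livers (30.4 ± 7.24 CPM, SD, n = 4), at 27.8, 39.9, 31.2 and 22.7 CPM, all above every Tsc1 L-/- and Cpt2 L-/- library. Ppara KO livers had 9.73, 8.76, 14.3 and 14.2 CPM and Cpt2 Ppara KO livers 48.0, 14.9, 16.8 and 23.0 CPM, again without overlap between them. Library 1 of Cpt2 Ppara KO was the highest of all 24, and this group overlapped DKO.

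Pck2 rose by 1.26 (SE 0.33, edgeR adjusted p = 0.0316) with loss of Tsc1, by 2.02 (SE 0.33, edgeR adjusted p = 0.00025) with loss of Cpt2 and by 3.13 (SE 0.34, edgeR adjusted p = 4.16e-06) with loss of both, the last an 8.75-fold difference. DKO livers were above Cpt2 L-/- livers by 1.10 (SE 0.30, edgeR adjusted p = 0.0196) and above Tsc1 L-/- livers by 1.87 (SE 0.31, edgeR adjusted p = 0.000296). The interaction of the 2 deletions, the change with loss of Tsc1 in livers without Cpt2 minus that in livers with it, was −0.15 (SE 0.44, edgeR adjusted p = 0.898) for Pck2. Ppara KO livers were above control by 1.73 (SE 0.36, edgeR adjusted p = 0.00176), and Cpt2 Ppara KO livers above Ppara KO livers by 1.13 (SE 0.34, edgeR adjusted p = 0.0231). Between Cpt2 Ppara KO and Cpt2 L-/- livers the difference of 0.85 (SE 0.33) was not called (edgeR adjusted p = 0.0844), and it was 0.35 (edgeR adjusted p = 0.444) without Cpt2 Ppara KO library 1.

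The rise with loss of Tsc1 alone was no longer called without control library 1, 2, 3 or 4 or Tsc1 L-/- library 1 or 2 (0.92 to 1.37, edgeR adjusted p = 0.0524 to 0.0960), without the filter (edgeR adjusted p = 0.0671), in a fit of 2 groups (edgeR adjusted p = 0.0671) or of all 24 libraries (edgeR adjusted p = 0.0715), or with limma at a pseudocount of 1 (limma adjusted p = 0.0604). The rise of DKO over Cpt2 L-/- was not called without Cpt2 L-/- library 3 or DKO library 2 (0.90 and 0.94, edgeR adjusted p = 0.0673 and 0.0701) or in the fit of all 24 libraries (edgeR adjusted p = 0.0546), and that of Cpt2 Ppara KO over Ppara KO was 0.64 (edgeR adjusted p = 0.126) without Cpt2 Ppara KO library 1, 1.01 (edgeR adjusted p = 0.0632) without Ppara KO library 2, and not called in a fit of 2 groups (edgeR adjusted p = 0.0871).

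Pck1, on chromosome 2 from 173153048 to 173159273 (plus strand), encodes the cytosolic PEPCK. It was at 6019, 5612, 4956 and 4955 CPM in control livers and 4536, 5864, 3616 and 4741 CPM in Tsc1 L-/- livers. Cpt2 L-/- livers had 4337, 4429, 4100.3 and 3852 CPM and DKO livers 2712, 2106, 3092 and 2423 CPM. Each DKO library was thus below each library of the other 3 groups. Ppara KO livers were at 3730.5, 3431, 2534 and 2652 CPM, and Cpt2 Ppara KO livers spread from 1986 CPM in library 1 to 5384 CPM in library 3 (0.31 against Ppara KO, SE 0.25, edgeR adjusted p = 0.376, and 0.52, edgeR adjusted p = 0.0869, without library 1).

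With loss of both Tsc1 and Cpt2, Pck1 fell by 1.04 against control (SE 0.17, edgeR adjusted p = 0.000104), by 0.67 against Cpt2 L-/- (SE 0.16, edgeR adjusted p = 0.0092) and by 0.85 against Tsc1 L-/- (SE 0.17, edgeR adjusted p = 0.000753). With loss of Tsc1 alone the difference was −0.20 (SE 0.16, edgeR adjusted p = 0.548), and with loss of Cpt2 alone −0.37 (SE 0.16, edgeR adjusted p = 0.0966; DESeq2 adjusted p = 0.0388). The interaction of the 2 deletions, −0.48 (SE 0.23, edgeR adjusted p = 0.273), was not called. In Ppara KO livers Pck1 fell by 0.81 (SE 0.25, edgeR adjusted p = 0.0232). This call was lost without control library 1 or Ppara KO library 3 or 4 (−0.75 to −0.72, edgeR adjusted p = 0.0557 to 0.0777), and that of DKO against Cpt2 L-/- in the fit of all 24 libraries (edgeR adjusted p = 0.0661).

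The ratio between the 2 PEPCK transcripts differed between groups. The ratio of their FPKM values, Pck1 over Pck2, was 1612 to 2405 in control livers with a median of 1888. It was 416 to 1105 in Tsc1 L-/-, 263 to 587 in Cpt2 L-/-, and 65.7 to 133 in DKO livers, none of which overlapped control. Ppara KO livers were at 220.1 to 488 and Cpt2 Ppara KO livers at 51.5 to 399.9, the lowest of them in library 1. Pck2 was still a small part of PEPCK transcripts, with a median of 0.0531% in control and 0.809% in DKO livers.

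**Figure D2:**
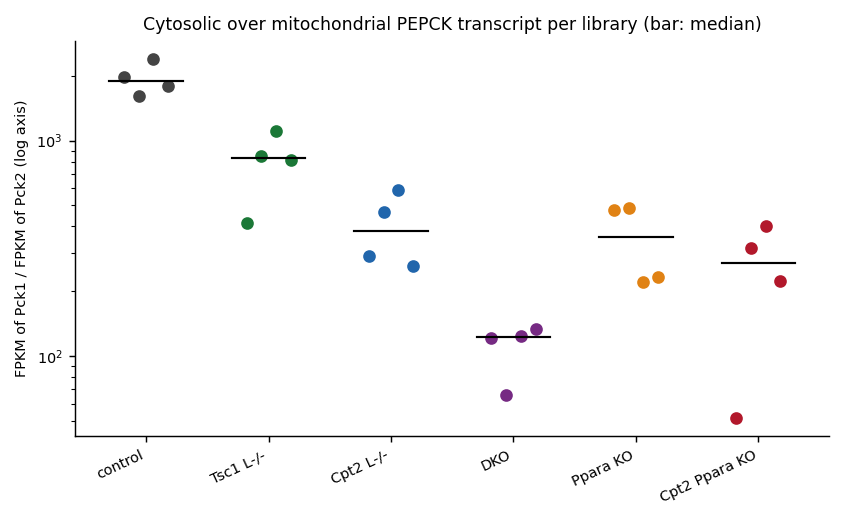
Ratio of the FPKM of Pck1 to that of Pck2 (vertical log axis) in the 4 libraries of each group (points), with the median (bar). The ratio is 1612 to 2405 in control livers and 65.7 to 133 in DKO livers.

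Pcx, on chromosome 19 from 4510472 to 4621752 (plus strand), encodes pyruvate carboxylase. It was at 1351, 1325, 1016 and 1116 CPM in control livers and 630.4, 768, 649.9 and 745 CPM in Tsc1 L-/- livers. DKO livers had 725, 563, 739 and 606 CPM, while Cpt2 L-/- livers had 786, 1053, 1326 and 984 CPM. Both groups without Tsc1 were therefore below every control and every Cpt2 L-/- library. Pcx fell by 0.78 (SE 0.16, edgeR adjusted p = 0.00664) in Tsc1 L-/- livers and by 0.85 (SE 0.16, edgeR adjusted p = 0.000491) in DKO livers against control, and by 0.64 (SE 0.16, edgeR adjusted p = 0.0109) in DKO against Cpt2 L-/- livers. Between Cpt2 L-/- and control the difference was −0.22 (SE 0.16, edgeR adjusted p = 0.326), and between DKO and Tsc1 L-/- −0.07 (SE 0.16, edgeR adjusted p = 0.76).

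Pcx also fell in both groups without Ppara. It was at 624 to 799.6 CPM in Ppara KO and 257, 577, 657 and 552 CPM in Cpt2 Ppara KO livers, with library 1 the lowest of all 24. The fall was 0.77 (SE 0.25, edgeR adjusted p = 0.0278) from control to Ppara KO and 1.02 (SE 0.25, edgeR adjusted p = 0.0116) from Cpt2 L-/- to Cpt2 Ppara KO, and without Cpt2 Ppara KO library 1 the second was 0.80 (edgeR adjusted p = 0.0115). The first was not called without control library 1 or 2 or Ppara KO library 1, 3 or 4 (−0.81 to −0.71, edgeR adjusted p = 0.0508 to 0.0720), and the fit of all 24 libraries gave edgeR adjusted p = 0.0531 for Tsc1 L-/- against control and 0.0676 for DKO against Cpt2 L-/-. Lrfn4, a gene on the opposite strand that shares 3883 bases with the span of Pcx, had at most 87 reads in a library.

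Fbp1, on chromosome 13 from 62864753 to 62888282 (minus strand), encodes fructose 1,6-bisphosphatase. It was at 1268, 1308, 1069 and 1175 CPM in control livers and, with loss of Tsc1, at 1186, 890.2, 1230.0 and 1237 CPM. In Cpt2 L-/- livers it was far lower, at 347, 537, 440.3 and 439.6 CPM, and DKO livers had 397, 241, 436 and 383 CPM. No Cpt2 L-/- or DKO library reached the lowest control or Tsc1 L-/- library. Fbp1 fell by 1.45 (SE 0.18, edgeR adjusted p = 1.21e-05) with loss of Cpt2, by 1.71 (SE 0.18, edgeR adjusted p = 1.79e-06) with loss of both, and by 1.63 (SE 0.18, edgeR adjusted p = 3.9e-06) from Tsc1 L-/- to DKO livers, and these calls held in every alternative. The hepatocyte markers were also lower in Cpt2 L-/- and DKO livers (above), and their part was not tested for Fbp1 or for the genes that follow. Loss of Tsc1 gave −0.08 (SE 0.17, edgeR adjusted p = 0.852) in livers with Cpt2 and −0.26 (SE 0.18, edgeR adjusted p = 0.325) in livers without it.

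In livers without Ppara, Fbp1 varied widely between libraries. Ppara KO livers were at 479.5, 1312, 783 and 619 CPM, of which library 2 lay above the highest control, and Cpt2 Ppara KO livers at 410.3, 834, 1164 and 581 CPM. Neither difference was called, with −0.60 (SE 0.31, edgeR adjusted p = 0.148) for Ppara KO against control and 0.76 (SE 0.31, edgeR adjusted p = 0.0908) for Cpt2 Ppara KO against Cpt2 L-/-. Without Ppara KO library 2 the first was −0.94 (edgeR adjusted p = 0.0288), and without Cpt2 Ppara KO library 1 the second was 0.96 (edgeR adjusted p = 0.0332). The second was 0.47 (edgeR adjusted p = 0.289) without Cpt2 Ppara KO library 3.

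G6pc, on chromosome 11 from 101367561 to 101377903 (plus strand), encodes the catalytic subunit of glucose 6-phosphatase. It was at 465, 302, 353 and 296 CPM in control livers and, with loss of Tsc1, at 376, 401, 597 and 499.6 CPM. In Cpt2 L-/- livers it was at 80.0, 129, 128 and 83.9 CPM, and DKO livers had 94.1, 63.0, 211 and 92.4 CPM. As for Fbp1, every library without Cpt2 was below every library with it in these 4 groups. G6pc fell by 1.75 (SE 0.31, edgeR adjusted p = 0.000584) with loss of Cpt2, by 1.61 (SE 0.31, edgeR adjusted p = 0.000938) with loss of both, and by 2.02 (SE 0.31, edgeR adjusted p = 0.000188) from Tsc1 L-/- to DKO livers. Loss of Tsc1 alone gave 0.41 (SE 0.30, edgeR adjusted p = 0.49).

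G6pc was also low in Ppara KO livers, at 168, 179, 94.1 and 92.8 CPM, a fall by 1.41 (SE 0.46, edgeR adjusted p = 0.0303). In Cpt2 Ppara KO livers it spread from 22.3 CPM in library 4 to 254 CPM in library 2 and was called against neither single knockout (0.39, SE 0.46, edgeR adjusted p = 0.585 against Cpt2 L-/-, and 0.71, edgeR adjusted p = 0.101, without library 4; 0.04, SE 0.46, edgeR adjusted p = 0.954 against Ppara KO). The fall in Ppara KO livers was not called without control library 1 or 3 or Ppara KO library 3 or 4 (−1.42 to −1.25, edgeR adjusted p = 0.0536 to 0.0919) or without the filter (edgeR adjusted p = 0.0769).

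Slc37a4, on chromosome 9 from 44398176 to 44402963 (plus strand), encodes the glucose 6-phosphate translocase that feeds G6pc. It was at 304, 305, 188 and 222 CPM in control livers, 282, 534, 293 and 282 CPM in Tsc1 L-/- and 164, 194, 162 and 114 CPM in Cpt2 L-/- livers. The DKO libraries lay close together at 173, 172, 163 and 159 CPM. Slc37a4 fell by 1.05 (SE 0.21, edgeR adjusted p = 0.00108) from Tsc1 L-/- to DKO livers, where the groups did not overlap, by 0.69 (SE 0.21, edgeR adjusted p = 0.019) with loss of Cpt2, and by 0.59 (SE 0.21, edgeR adjusted p = 0.0351) with loss of both. The last 2 calls were not stable. The fall in Cpt2 L-/- livers was lost without control library 1 or 2 or Cpt2 L-/- library 3 or 4 (−0.66 to −0.55, edgeR adjusted p = 0.0511 to 0.0807), and that in DKO livers without control library 1 or 2 or any DKO library (−0.61 to −0.48, edgeR adjusted p = 0.0569 to 0.112), with limma (limma adjusted p = 0.109 at a pseudocount of 0.1) and, for both, in the fit of all 24 libraries (edgeR adjusted p = 0.115 and 0.144).

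In Ppara KO livers Slc37a4 ranged from 195 to 622 CPM and was not called against control (0.55, SE 0.32, edgeR adjusted p = 0.213, and 0.20, edgeR adjusted p = 0.673, without Ppara KO library 2). The ratio of G6pc to Slc37a4 in FPKM was 0.855 to 1.62 in control, 0.648 to 1.76 in Tsc1 L-/-, 0.420 to 0.685 in Cpt2 L-/-, 0.317 to 1.11 in DKO, 0.196 to 0.744 in Ppara KO and 0.155 to 0.874 in Cpt2 Ppara KO livers, so that Cpt2 L-/- and Ppara KO livers did not overlap control. Cpt2 Ppara KO livers differed from Cpt2 L-/- livers by 0.16 (SE 0.32, edgeR adjusted p = 0.769), or by 0.31 (edgeR adjusted p = 0.587) without Cpt2 Ppara KO library 1. In Cpt2 Ppara KO livers, at 113 to 251 CPM, Slc37a4 was below Ppara KO livers by 1.08 (SE 0.32, edgeR adjusted p = 0.024), with overlapping groups. The call was lost without Ppara KO library 2 or 3 or Cpt2 Ppara KO library 1 (−1.03 to −0.73, edgeR adjusted p = 0.0548 to 0.0963) and in a fit of 2 groups (edgeR adjusted p = 0.102).

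Slc2a2, on chromosome 3 from 28697903 to 28728356 (plus strand), encodes the main glucose transporter of the hepatocyte. It was at 186, 213, 257 and 307 CPM in control livers, and Tsc1 L-/- livers ranged from 164 to 324 CPM. Cpt2 L-/- livers had 95.7, 132, 166 and 133 CPM, below every control library, and Ppara KO livers 137, 80.0, 91.9 and 169 CPM, also below. Slc2a2 fell by 0.87 (SE 0.20, edgeR adjusted p = 0.00314) with loss of Cpt2 and by 1.01 (SE 0.28, edgeR adjusted p = 0.0122) in Ppara KO livers. DKO livers, at 132 to 183 CPM, were lower than control by 0.59 (SE 0.20, edgeR adjusted p = 0.0287) and than Tsc1 L-/- livers by 0.54 (SE 0.20, edgeR adjusted p = 0.0473). Cpt2 Ppara KO livers, at 64.8 to 148 CPM, differed from Cpt2 L-/- by −0.28 (SE 0.28, edgeR adjusted p = 0.499) and from Ppara KO by −0.15 (SE 0.28, edgeR adjusted p = 0.72), neither of which was called. Without Cpt2 Ppara KO library 1 these were −0.11 (edgeR adjusted p = 0.841) and 0.027 (edgeR adjusted p = 0.959).

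The 2 calls in DKO livers were not stable. That against control was lost without control library 3 or 4 or DKO library 2, 3 or 4 (−0.60 to −0.45, edgeR adjusted p = 0.0520 to 0.103), and that against Tsc1 L-/- without control library 2 or 3, Tsc1 L-/- library 2, 3 or 4, Cpt2 L-/- library 2 or 4, or DKO library 2, 3 or 4 (−0.57 to −0.34, edgeR adjusted p = 0.0522 to 0.195). Both were also lost with limma and in the fit of all 24 libraries (edgeR adjusted p = 0.0905 and 0.137), and that against Tsc1 L-/- without the filter (edgeR adjusted p = 0.0589).

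Pklr, on chromosome 3 from 89136142 to 89146784 (plus strand), encodes the liver pyruvate kinase, which runs the last step of glycolysis. It was at 63.7, 86.5, 127 and 130.3 CPM in control livers and at 94.4, 121, 496 and 191 CPM in Tsc1 L-/- livers, of which library 3 was the highest of all 24. Cpt2 L-/- livers lay close together at 29.9, 31.4, 37.4 and 37.5 CPM, below every control library, and DKO livers were at 83.9, 81.1, 103 and 56.0 CPM. Pklr fell by 1.58 (SE 0.44, edgeR adjusted p = 0.0144) with loss of Cpt2 and by 1.47 (SE 0.43, edgeR adjusted p = 0.0196) from Tsc1 L-/- to DKO livers. Against control, DKO livers overlapped and were not called (−0.31, SE 0.43, edgeR adjusted p = 0.6), nor were Tsc1 L-/- livers (1.15, SE 0.43, edgeR adjusted p = 0.136, and 0.42, edgeR adjusted p = 0.41, without Tsc1 L-/- library 3). Although each DKO library was above each Cpt2 L-/- library, that difference of 1.27 (SE 0.44) was not called (edgeR adjusted p = 0.059).

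Pklr was at 56.7, 98.0, 57.5 and 56.0 CPM in Ppara KO and 28.9 to 65.5 CPM in Cpt2 Ppara KO livers. Its difference of −0.61 (SE 0.26) between Ppara KO and control was not called (edgeR adjusted p = 0.0838), but was without control library 1, Ppara KO library 2 or Cpt2 Ppara KO library 1 (−0.84 to −0.61, edgeR adjusted p = 0.0263 to 0.0406). Between Cpt2 Ppara KO and Cpt2 L-/- livers it was 0.57 (SE 0.26, edgeR adjusted p = 0.131), and 0.76 (edgeR adjusted p = 0.0405) without Cpt2 Ppara KO library 1.

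The fall of Pklr from Tsc1 L-/- to DKO livers was −0.73 (edgeR adjusted p = 0.0546) without Tsc1 L-/- library 3 and −1.32 (edgeR adjusted p = 0.0580) without DKO library 4, and it was not called with limma (limma adjusted p = 0.0673 and 0.0705) or in a fit of 2 groups (edgeR adjusted p = 0.0822). The difference between DKO and Cpt2 L-/- livers was called with DESeq2 (DESeq2 adjusted p = 0.026), in a fit of 2 groups (edgeR adjusted p = 0.000425), with all 24 libraries (edgeR adjusted p = 0.0484) and without Tsc1 L-/- library 1 or 3 (1.27 in each, edgeR adjusted p = 0.0338 and 0.00352). Hcn3, on the opposite strand, shares 711 bases with Pklr and had 6 to 1673 reads, with 106.6 CPM as its highest value in Tsc1 L-/- livers, against at most 16.5 CPM in every other group. Library preparation kept strand, but whether counting used it is not given in the sources used here, and the part of Hcn3 reads in the Pklr counts was not tested.

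Ppargc1a, on chromosome 5 from 51454249 to 51567725 (minus strand), encodes the coactivator Pgc1α, which binds Pparα, Hnf4α and other factors. Control livers split into 35.4 and 33.6 CPM in libraries 1 and 2 and 13.7 and 13.0 CPM in libraries 3 and 4. Tsc1 L-/- livers were at 24.1, 41.4, 23.4 and 18.6 CPM, Cpt2 L-/- livers at 28.4, 22.8, 18.9 and 19.5 CPM and DKO livers at 13.6, 10.8, 12.4 and 20.6 CPM. No comparison among these 4 groups was called. The differences from control were 0.17 (SE 0.34, edgeR adjusted p = 0.836) for Tsc1 L-/-, −0.09 (SE 0.34, edgeR adjusted p = 0.865) for Cpt2 L-/- and −0.72 (SE 0.35, edgeR adjusted p = 0.117) for DKO livers. DKO livers differed from Tsc1 L-/- livers by −0.89 (SE 0.35, edgeR adjusted p = 0.0616), which was called with DESeq2 (DESeq2 adjusted p = 0.0166), in a fit of 2 groups (edgeR adjusted p = 0.0299), and without control library 3 or 4, Tsc1 L-/- library 4 or DKO library 4 (−1.12 to −0.89, edgeR adjusted p = 0.0371 to 0.0486). The difference of DKO from Cpt2 L-/- livers, −0.62 (SE 0.34, edgeR adjusted p = 0.224), was called in a fit of 2 groups (edgeR adjusted p = 0.0435), and that of DKO from control without control library 4 (−0.92, edgeR adjusted p = 0.0498), while without control library 1 it was −0.45 (edgeR adjusted p = 0.349).

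Ppargc1a was lowest in Ppara KO livers, at 13.2, 11.0, 6.52 and 7.18 CPM, while Cpt2 Ppara KO livers, at 20.6, 39.8, 37.0 and 17.4 CPM, had a mean of 28.7 CPM, close to the 26.9 CPM of Tsc1 L-/- livers, which they overlapped. It fell by 1.34 (SE 0.36, edgeR adjusted p = 0.00948) from control to Ppara KO and rose by 1.60 (SE 0.36, edgeR adjusted p = 0.0076) from Ppara KO to Cpt2 Ppara KO livers, without overlap in the second. In a fit of only the 2 groups the rise was 1.60 with edgeR adjusted p = 0.0509, and without Cpt2 Ppara KO library 1 it was 1.72 (edgeR adjusted p = 0.015). Between Cpt2 Ppara KO and Cpt2 L-/- livers the difference was 0.36 (SE 0.34, edgeR adjusted p = 0.49).

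**Figure D3:**
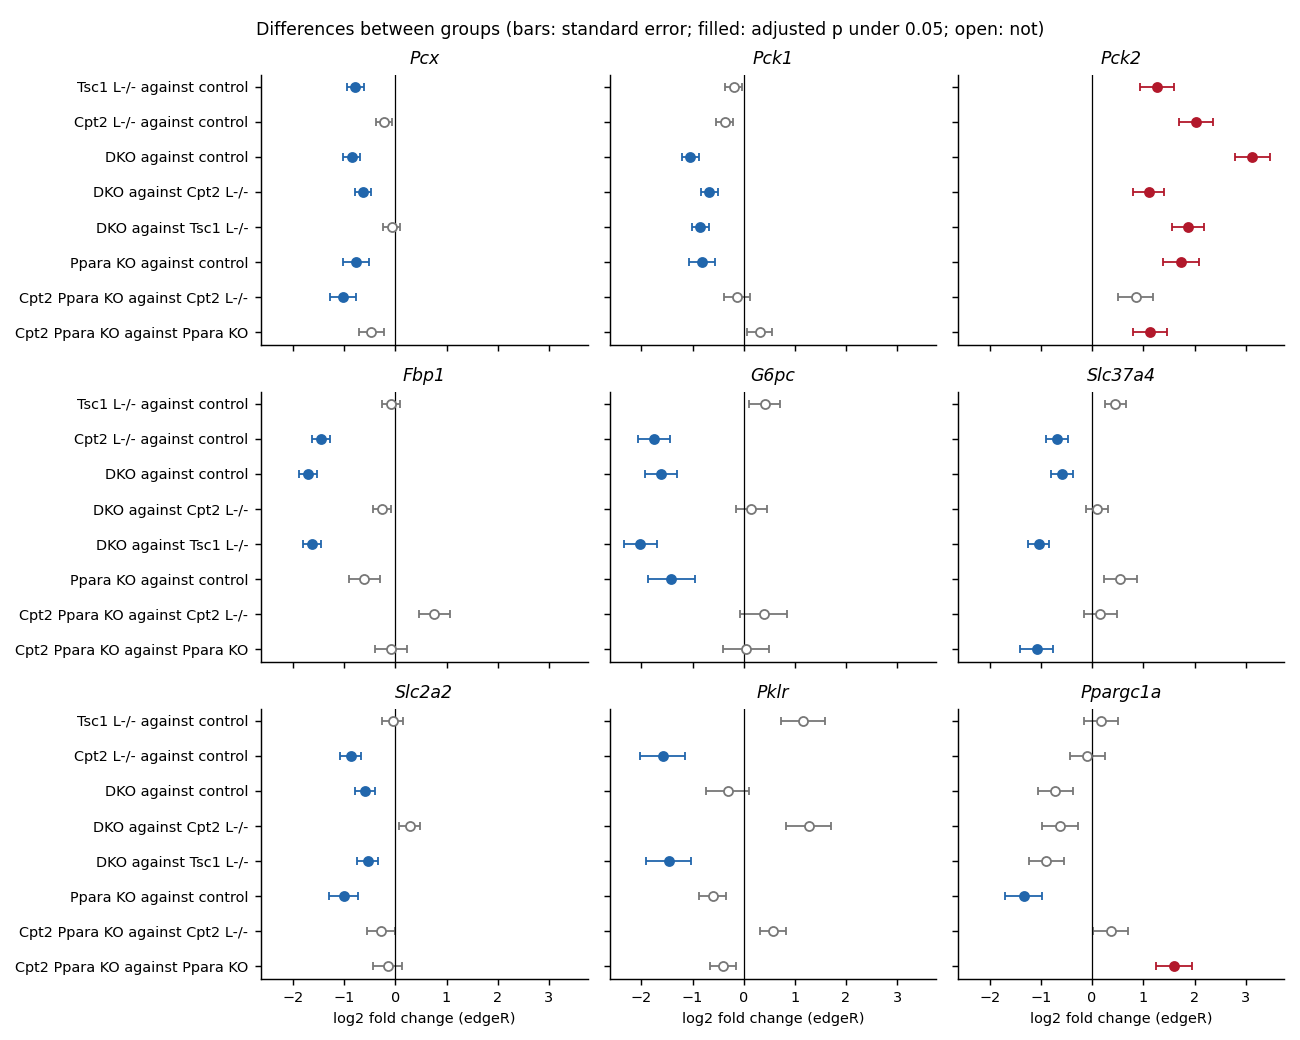
Log2 fold change of each gene (horizontal axes) in the 8 comparisons, with its standard error (bars). Filled points were called (red higher, blue lower) and open points were not. Pck2 is above 0 throughout, from 0.85 to 3.13, and Fbp1 and G6pc are at −1.45 or lower in Cpt2 L-/- and DKO livers against control.

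Whether one deletion changed the effect of another was asked with interaction terms. For Tsc1 and Cpt2, 2.38% of all genes tested were called (1.09% higher and 1.28% lower) and 0 of the 9 (0 at an unadjusted p under 0.05 by edgeR, 0 called with DESeq2 or limma). The values lay between −0.80 (Ppargc1a, SE 0.48) and 0.33 (Slc2a2, SE 0.28). Ppargc1a was at −0.51 (edgeR adjusted p = 0.613) without Tsc1 L-/- library 2, Slc2a2 and Pklr at 0.54 and 0.85 (edgeR adjusted p = 0.261 and 0.219) without Tsc1 L-/- library 3, and G6pc at −0.73 (edgeR adjusted p = 0.221) without DKO library 3. The count of all genes called, 324, was 150 to 211 without control library 2 or 4, Cpt2 L-/- library 3 or 4 or DKO library 2, and 65 with all 24 libraries. For Cpt2 and Ppara, 24.0% of all genes tested were called and 3 of the 9, all higher: Fbp1 (1.37, SE 0.43, edgeR adjusted p = 0.0305), Pklr (1.18, SE 0.37, edgeR adjusted p = 0.0269) and Ppargc1a (1.70, SE 0.49, edgeR adjusted p = 0.0205). The change with loss of Cpt2 was −1.45 for Fbp1 and −1.58 for Pklr in livers with Ppara, and −0.09 (SE 0.31) and −0.40 (SE 0.26) in livers without it. Without Cpt2 Ppara KO library 1 the last 2 were 0.11 and −0.21. For Ppargc1a it was −0.09 with Ppara and 1.60 without. The values with Ppara come from the fit that holds the Tsc1 groups. G6pc had a value of 1.80 (SE 0.65) that was not called (edgeR adjusted p = 0.0529; DESeq2 adjusted p = 0.0195; 0.0423 with all 24 libraries in edgeR; 1.93 and 2.12, with edgeR adjusted p = 0.0486 and 0.00233, without Ppara KO library 1 and Cpt2 Ppara KO library 4).

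The Fbp1 call was lost without control library 1 or 2, Cpt2 L-/- library 1, 3 or 4, Ppara KO library 3 or 4, or Cpt2 Ppara KO library 2 or 3 (1.07 to 1.37, edgeR adjusted p = 0.0526 to 0.0678), and the Pklr call without control library 3 or 4, Cpt2 L-/- library 1, Ppara KO library 3 or 4, or Cpt2 Ppara KO library 3 (1.03 to 1.11, edgeR adjusted p = 0.0529 to 0.0611), with limma (limma adjusted p = 0.0548 and 0.0555) and with all 24 libraries (edgeR adjusted p = 0.105). Without Cpt2 Ppara KO library 1, 5 genes were called, Pck1 (0.89, edgeR adjusted p = 0.0264) and Pck2 (−1.38, edgeR adjusted p = 0.0168) in addition, and Fbp1, Pklr and Ppargc1a were at 1.57, 1.37 and 1.82 (edgeR adjusted p = 0.00975, 0.00696 and 0.0204).

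The markers of zones within the liver lobule also differed between groups. The 8 pericentral markers summed to 15457 to 17021 CPM in control livers and to at most 10451 CPM in every library of the other groups. The 8 periportal markers, of the zone where gluconeogenesis is strongest, summed to 4765 to 10040 CPM in control, 8084 to 13590 CPM in Tsc1 L-/-, 5367 to 7420.3 CPM in Cpt2 L-/-, 3685 to 5089 CPM in DKO, 8686 to 19814 CPM in Ppara KO and 6810 to 17371 CPM in Cpt2 Ppara KO livers. Every DKO library was thus below every Tsc1 L-/- and Cpt2 L-/- library. The 6 Kupffer cell markers summed to 212.0 to 366 CPM in control and 114 to 175 CPM in DKO livers. The 7 hepatic stellate cell markers summed to 307 to 389 CPM in control and, below every control library, to 191 to 297 CPM in Tsc1 L-/-, 220.3 to 298 CPM in Cpt2 L-/-, 181 to 225 CPM in DKO and 218 to 268 CPM in Cpt2 Ppara KO livers. The 5 erythroid markers ranged from 120 to 2054 CPM over all libraries, and the 6 lymphocyte markers stayed at 9.29 CPM or less. All markers of these lists had reads in every group. Their part in the differences of the 9 genes was not tested.

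Over the 24 libraries, 58.6% (Slc37a4) to 82.8% (Pck2) of the variance of log2 CPM lay between groups. As a description, with groups, library sets and depth shared by the points, Pck2 was negatively correlated with each of the other 8 genes, from a Pearson's r of −0.75 with Fbp1 to −0.17 with Ppargc1a. Fbp1 and G6pc had r = 0.72, Slc2a2 and Pklr r = 0.70, and Fbp1 and Slc37a4 r = 0.68. Within groups, taken as deviations from the group means, Pcx and Pck1 had the highest r of all pairs, 0.75, and Pcx and Fbp1 had 0.69. Pck2 and Pklr were at −0.69 within groups and Pck2 and Slc2a2 at −0.57. The pair of the glucose 6-phosphatase system, G6pc and Slc37a4, had r = 0.54 over all libraries and 0.34 within groups. Without Cpt2 Ppara KO library 1, the within-group r of Pcx and Pck1 was 0.42, that of Pcx and Fbp1 0.57, that of Pck2 and Pklr −0.63 and that of Pck2 and Slc2a2 −0.43. Pck2 and Pck1 went from −0.38 to 0.027 and Pck2 and Slc37a4 from −0.25 to −0.090.

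**Figure D4:**
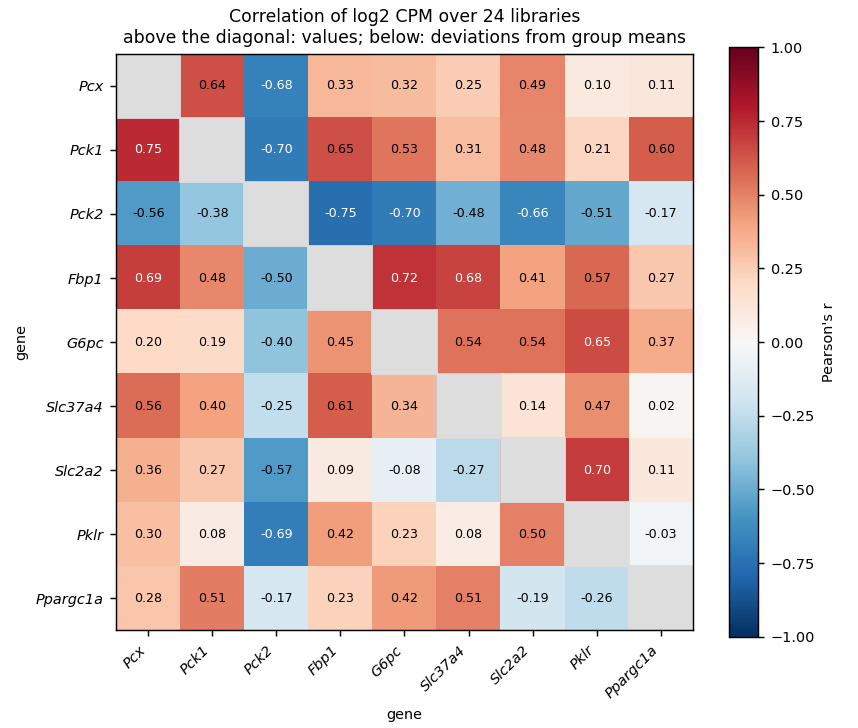
Pearson's r of log2 CPM between the 9 genes over 24 libraries, from the values (above the diagonal) and from deviations from the group means (below it), with color from −1 to 1. Pck2 has negative values with all other genes, and Pcx and Pck1 have the highest value within groups, 0.75. Without Cpt2 Ppara KO library 1 this is 0.42, and the within-group value of Pck1 and Pck2 is 0.027 in place of −0.38.

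The genes most like each of the 9 were taken, as a description, as the 3 with the highest r of log2 CPM over the 24 libraries among genes with a mean of at least 1 CPM. For Pck2 these were Mknk1 (0.93), Sars, the cytosolic seryl-tRNA synthetase (0.92), and Chmp2b (0.91), and its lowest was Cul4a (−0.92). For Fbp1 they included Akr1d1, an enzyme of bile acid synthesis, and Serpina6, the plasma carrier of glucocorticoids (each 0.91). For G6pc they were Ninj1 (0.84), Upp2 (0.83) and Lgr4 (0.82), for Slc37a4 Serpina3n (0.91), Psen2 (0.89) and Papss2 (0.88), and for Pck1 Aspdh (0.87), Abat (0.86) and Bend4 (0.85). Pklr was closest to Otc of the urea cycle and Cyb5r3 (each 0.91) and then to Hcn3 (0.91), the gene that overlaps it. Slc2a2 was closest to Pip4k2b (0.92), Ttll5 and AI464131 (each 0.90), with Tma16 as its lowest (−0.94), and Pcx to Snrk, Mtus1 (each 0.84) and Slc25a10 (0.83), the mitochondrial dicarboxylate carrier. Ppargc1a had the weakest likeness, with r = 0.76 for Ubac1 and Sh3bgrl3 and 0.75 for Gm14097. On log2 FPKM, 22 of these 27 genes were chosen again.

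Other genes of glucose metabolism were read from 5 lists of 129 genes that hold none of the 9. Among the 26 enzymes of gluconeogenesis and glycolysis, 4 were higher and 3 lower in Cpt2 L-/- livers, 1 and 1 in Tsc1 L-/- livers, and 5 and 4 in Ppara KO livers, all against control. These are 26.9%, 7.69% and 34.6% of the list, against 31.0%, 6.64% and 29.0% of all genes tested. The medians of the list in these 3 comparisons were 0.03, 0.03 and −0.01, and those of all genes −0.02, 0.01 and 0.01. In DKO livers 5 were called against Cpt2 L-/- (19.2%, against 18.3% of all genes) and 7 against Tsc1 L-/- (26.9% against 32.2%), and 3 in Cpt2 Ppara KO against Cpt2 L-/- livers (11.5% against 18.4%). The 5 were 0 to 3 without control library 4, Cpt2 L-/- library 1, 3 or 4 or any DKO library, and the 3 were 1 without Cpt2 L-/- library 3 or Cpt2 Ppara KO library 3 and 5 without Ppara KO library 1 or Cpt2 Ppara KO library 1. Fbp2, the muscle form of fructose 1,6-bisphosphatase, was at 0.528 ± 0.241 CPM in control, 2.11 ± 0.382 CPM after the loss of Cpt2 and 5.07 ± 1.90 CPM in DKO (SD, n = 4 each). Fbp2 rose by 1.28 in DKO against Cpt2 L-/- (SE 0.40, edgeR adjusted p = 0.0315), a call lost without Cpt2 L-/- library 1, 2 or 3 or DKO library 2 or 4 (1.05 to 1.26, edgeR adjusted p = 0.0594 to 0.103) and with all 24 libraries (edgeR adjusted p = 0.432), and by 4.05 in DKO against Tsc1 L-/- livers (SE 0.49, edgeR adjusted p = 1.02e-05). Ldha, a lactate dehydrogenase subunit, fell by 2.12 (SE 0.32, edgeR adjusted p = 0.000162) in Ppara KO and by 0.89 (SE 0.24, edgeR adjusted p = 0.0305) in Tsc1 L-/- livers against control, the second not called without control library 2, 3 or 4 or Tsc1 L-/- library 2, 3 or 4 (−0.92 to −0.73, edgeR adjusted p = 0.0528 to 0.0976), with the block, with 2 groups or with all 24 libraries. Aldoa rose by 1.22 from Tsc1 L-/- to DKO livers (SE 0.16, edgeR adjusted p = 2.41e-05).

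Of the 24 tested genes that bring carbon into gluconeogenesis from amino acids, lactate or glycerol, 4 were higher and 7 lower in Cpt2 L-/-, 2 and 10 in Ppara KO, and 1 and 4 in Tsc1 L-/- livers, against control. From Tsc1 L-/- to DKO livers 5 rose and 8 fell. The shares called were 45.8% in Cpt2 L-/-, 20.8% in Tsc1 L-/- and 54.2% in the last comparison, against 31.0%, 6.64% and 32.2% of all genes, and 12 of 24 in Ppara KO livers, against 29.0% of all genes. Against Cpt2 L-/-, 8 were called in DKO livers (33.3%, against 18.3% of all genes) and 6 of 24 in Cpt2 Ppara KO livers (against 18.4%), which were 5 without DKO library 2 and 3 without Cpt2 L-/- library 3. Without Cpt2 L-/- library 1 the 11 calls in Cpt2 L-/- livers were 7. The 5 calls in Tsc1 L-/- livers were 3 without control library 3 or Tsc1 L-/- library 1 or 2, and 2 without control library 4. Sds, the serine dehydratase, was at 182 ± 76.3 CPM in Tsc1 L-/- and 6.70 ± 3.18 CPM in DKO livers. It fell by 4.76 (SE 0.69, edgeR adjusted p = 0.000207) between them and fell by 2.59 (SE 0.64, edgeR adjusted p = 0.0152) from Cpt2 L-/- to DKO livers, where it was not called without DKO library 2 (edgeR adjusted p = 0.0512) or with all 24 libraries (edgeR adjusted p = 0.061). Gls2, the liver glutaminase and also one of the periportal markers above, fell by 3.18 (SE 0.28, edgeR adjusted p = 1.43e-06) from Tsc1 L-/- to DKO livers. Gpd1, the cytosolic glycerol 3-phosphate dehydrogenase, fell from 505 ± 64.0 CPM in control to 183 ± 63.9 CPM in Tsc1 L-/- livers (−1.46, SE 0.22, edgeR adjusted p = 0.000656) and 98.1 ± 55.8 CPM in Ppara KO livers (−2.36, SE 0.34, edgeR adjusted p = 0.000115). Gpd2, its mitochondrial counterpart, rose by 1.35 (SE 0.20, edgeR adjusted p = 6.68e-05) in Cpt2 L-/- livers against control.

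Of 17 tested genes of glycogen metabolism, 4 were higher and 7 lower in Cpt2 L-/- livers (median −0.49), and 4 and 6 in Ppara KO livers (median −0.37), which are 64.7% and 58.8% of the list against 31.0% and 29.0% of all genes. The 10 calls in Ppara KO livers were 6 without control library 3 or Ppara KO library 3. In Tsc1 L-/- against control 3 were called (17.6%, against 6.64% of all genes), a count of 0 or 1 without any control library, Tsc1 L-/- library 1, 2 or 4 or DKO library 1 or 3. In DKO livers 5 were called against Cpt2 L-/- (29.4% against 18.3%) and 7 against Tsc1 L-/- (41.2% against 32.2%), and in Cpt2 Ppara KO against Cpt2 L-/- livers 7 (41.2% against 18.4%), which were 4 without Cpt2 L-/- library 1 or 4. Ppp1r3c, a subunit that brings protein phosphatase 1 to glycogen, fell from 42.5 ± 26.3 CPM to 1.99 ± 0.430 CPM in Cpt2 L-/- livers (−4.42, SE 0.73, edgeR adjusted p = 0.000586), and Ppp1r3b, another such subunit, fell by 2.33 (SE 0.60, edgeR adjusted p = 0.0104). From Tsc1 L-/- to DKO livers Ppp1r3c fell by 4.64 (SE 0.75, edgeR adjusted p = 0.000446). Pgm1 rose by 1.37 from Cpt2 L-/- to DKO livers (SE 0.27, edgeR adjusted p = 0.00262), and Ugp2 by 1.52 from Cpt2 L-/- to Cpt2 Ppara KO livers (SE 0.20, edgeR adjusted p = 0.000127).

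Of 12 tested genes of glucose and fructose transport and sensing, 1 was higher and 7 lower in Cpt2 L-/- livers (median −0.86), and 1 was higher and 8 lower from Tsc1 L-/- to DKO livers (median −0.87), which are 66.7% and 75.0% of the list against 31.0% and 32.2% of all genes. In Ppara KO against control 4 of 12 were called (33.3%, against 29.0% of all genes; median −0.08), and 2 without control library 3. In DKO against Cpt2 L-/- and in Tsc1 L-/- against control 2 were called each (16.7%, against 18.3% and 6.64%), the first 0 to 5 and the second 1 to 3 over the alternatives. In Cpt2 Ppara KO against Cpt2 L-/- 6 of 12 were called (against 18.4%), and 2 without Cpt2 L-/- library 3 and 3 without Cpt2 Ppara KO library 2. Gckr, a regulatory protein of hepatic glucose uptake, fell from 122 ± 40.5 CPM in control to 34.3 ± 0.725 CPM in Cpt2 L-/- livers (−1.83, SE 0.26, edgeR adjusted p = 8.42e-05). Sord, sorbitol dehydrogenase, fell by 1.02 (SE 0.17, edgeR adjusted p = 0.000228) in Cpt2 L-/- and by 1.76 (SE 0.21, edgeR adjusted p = 2.01e-05) in Ppara KO livers. Slc2a5, the fructose transporter, rose by 1.13 (SE 0.20, edgeR adjusted p = 0.00201) in Tsc1 L-/- livers and fell by 2.54 (SE 0.21, edgeR adjusted p = 3.55e-07) from there to DKO livers. Mlxipl (ChREBP), a factor that acts on Pklr, fell by 1.74 (SE 0.50, edgeR adjusted p = 0.0161) in the same comparison, and by 1.17 (edgeR adjusted p = 0.0623) without Tsc1 L-/- library 3.

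Of the hormonal and transcriptional regulators, 6 of 44 tested were higher and 5 lower in Cpt2 L-/-, 1 and 2 in Tsc1 L-/- livers, and 8 and 6 of 45 in Ppara KO livers, against control. These are 11 of 44, 6.82% and 31.1% of the list, against 31.0%, 6.64% and 29.0% of all genes, and the 11 were 7 without Cpt2 L-/- library 4. From Cpt2 L-/- to DKO livers 0 were higher and 6 lower, among them Foxo3 (−0.77, SE 0.20, edgeR adjusted p = 0.0126) and Insr, the insulin receptor (−0.67, SE 0.14, edgeR adjusted p = 0.00346). From Tsc1 L-/- to DKO livers 2 were higher and 13 lower. These shares, 13.6% and 34.1%, stand against 18.3% and 32.2% of all genes. Onecut1 fell by 2.64 (SE 0.81, edgeR adjusted p = 0.0257) in Cpt2 L-/- against control, and it fell by 3.31 (SE 0.84, edgeR adjusted p = 0.0089) in DKO against Tsc1 L-/- livers, and Nr0b2 (Shp), a corepressor, fell by 2.71 (SE 0.89, edgeR adjusted p = 0.0344) and fell by 5.12 (SE 1.07, edgeR adjusted p = 0.00283) in the same comparisons. In Cpt2 L-/- livers Onecut1 was not called without control library 3 or Cpt2 L-/- library 1, 3 or 4 (−2.72 to −1.97, edgeR adjusted p = 0.0575 to 0.0876), nor Nr0b2 without control library 1, 3 or 4 or Cpt2 L-/- library 1, 2 or 4 (−2.78 to −2.22, edgeR adjusted p = 0.0514 to 0.096), and from Tsc1 L-/- to DKO livers Onecut1 fell by 1.98 (edgeR adjusted p = 0.0273) without Tsc1 L-/- library 3. Ppargc1b, the close relative of Ppargc1a, rose by 1.05 (SE 0.23, edgeR adjusted p = 0.00873) in Tsc1 L-/- livers. With all 24 libraries it (edgeR adjusted p = 0.246) and Foxo3 (edgeR adjusted p = 0.102) were not called. Esrrg fell to 0.0450 ± 0.0901 CPM in Ppara KO livers from 3.45 ± 1.67 CPM in control (edgeR adjusted p = 7.36e-05). Nr4a1 rose by 3.02 (SE 0.57, edgeR adjusted p = 0.00102) in Ppara KO livers.

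**Figure D5:**
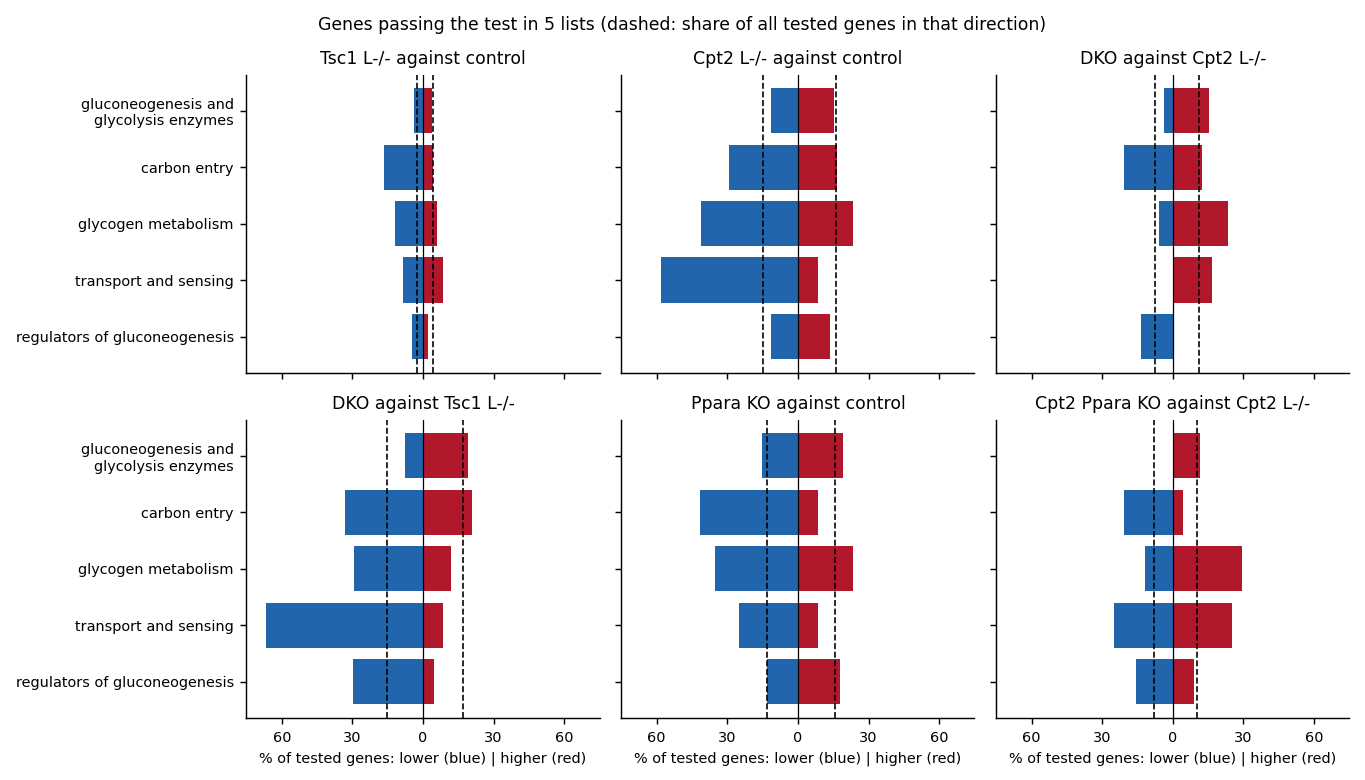
Share of the tested genes of each of 5 lists that were called higher (red, to the right) or lower (blue, to the left) in 6 comparisons, in percent of the genes tested, beside the share of all genes called in that direction (dashed lines). Genes of transport and sensing are lower in Cpt2 L-/- against control (7 of 12) and in DKO against Tsc1 L-/- livers (8 of 12).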

How the data were processed

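RNA was prepared by the authors with a stranded poly(A) library kit and sequenced as single 75-base reads. The authors deposited read counts per gene without normalization, and FPKM values made from the same counts, gene lengths and library totals. The submitters' processing notes name Bowtie 0.12.2, TopHat, STAR 2.5, HTSeq 0.6.1, DESeq2 and edgeR without their role, and the deposited coordinates match GRCm38. The strand setting of the counting is not given in the sources used here.

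Tests on the deposited counts used edgeR 4.0.16 under R 4.3.3 (TMM, filterByExpr with a minimum count of 10 and total count of 15, robust quasi-likelihood fit), in 2 fits of 16 libraries without covariates. Fit 1 held control, Tsc1 L-/-, Cpt2 L-/- and DKO (13641 genes tested) and fit 2 control, Cpt2 L-/-, Ppara KO and Cpt2 Ppara KO (13615 genes). The Cpt2 L-/- against control values are from fit 1. P-values were adjusted by Benjamini-Hochberg over all genes of a fit. Log2 CPM used a prior count of 2. The tests were checked on simulated counts with known fold changes.

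The 9 genes and the lists were chosen with earlier results of these data known. List genes were named from the 2 largest called changes of a list in each of 6 comparisons, at a mean of at least 1 CPM. Alternatives were RLE size factors, no filter, DESeq2 1.42.0, all 24 libraries, 2 groups only, the replicate number as a block, limma 3.58.1 on log2 FPKM with pseudocounts of 1 and 0.1, a 1.5-fold minimum, each library left out, and, chosen after seeing the data, fits of 12 libraries. No 2 libraries of a group agreed within sampling noise. Figures were drawn with matplotlib 3.10.9. A few genes that the naming rule selected are not reported here.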

Additional observations from a re-analysis of the deposited data

Results flagged for a closer look

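In 3 of 54 sets of 4 libraries, 1 library lay far from the other 3 by Dixon's test at the 95% level, which chance gives in about 1 of 20 sets. Fbp1 was at 890.2 CPM in Tsc1 L-/- library 2, the lowest of its group, and Slc37a4 was at 534 CPM in the same library, the highest of its group. Pklr was at 98.0 CPM in Ppara KO library 2, the highest of its group.

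The effect of Cpt2 loss differed between livers with and without Ppara in the test of the interaction itself, by 1.37 for Fbp1, 1.18 for Pklr and 1.70 for Ppargc1a on the log2 scale. The Fbp1 and Pklr calls were each lost in 9 of 23 alternatives. Of all genes tested, 24.0% were called in this interaction. This comparison crosses the 2 library sets, and the set and the genotype cannot be told apart in it.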

How the results depend on the processing

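Of the 35 calls made between pairs of groups, 19 held in every alternative, 16 were lost in at least 1 and 0 changed direction. The cause of a lost call was not tested. For Tsc1 L-/- against control, 2 genes were called in the main analysis, 1 without the filter, with limma at a pseudocount of 1 or with 2 groups, 0 with all 24 libraries, and 1 to 2 with a library left out. For DKO against Cpt2 L-/-, 3 became 5 with 2 groups, 1 with all 24 libraries and 2 to 4 with a library left out. For Cpt2 Ppara KO against Ppara KO, 3 became 0 with 2 groups and 1 to 3 with a library left out. With 2 groups the count of all genes called fell from 3475 of 13615 to 111 of 12784 in that comparison and from 906 to 466 in Tsc1 L-/- against control. With all 24 libraries it fell to 400 in Tsc1 L-/- against control, from 4235 to 2798 in Cpt2 L-/- against control and from 2494 to 1065 in DKO against Cpt2 L-/-, and with the 12 libraries of one set from 2499 to 1576 in Cpt2 Ppara KO against Cpt2 L-/-. Leaving out a library gave 5 to 6 (of 6) for Cpt2 L-/- against control, 5 to 7 (of 7) for DKO against control, 5 to 8 (of 7) for DKO against Tsc1 L-/-, 3 to 8 (of 6) for Ppara KO against control, with 3 without Ppara KO library 3 or 4, 1 to 3 (of 1) for Cpt2 Ppara KO against Cpt2 L-/-, and 1 to 5 (of 3) for the interaction of Cpt2 and Ppara. The interaction of Tsc1 and Cpt2 gave 0 in each alternative, while its count of all genes, 324, was 754 with DESeq2 and 195 with limma at a pseudocount of 0.1. Of 735 counts of called genes of the 5 lists under the alternatives, 98 moved by over 1.5 times, 51 of them in Tsc1 L-/- against control, where the main counts were 2 to 5 and the alternatives gave 0 to 8, and 22 in DKO against Cpt2 L-/-, where the enzymes ran from 0 to 8 (main 5), the regulators from 1 to 10 (main 6), and transport and sensing from 0 to 5 (main 2). With all 24 libraries, 11 genes of carbon entry in Cpt2 L-/- against control became 5.

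Differences that changed sign were not called in the main analysis. With limma at pseudocounts of 1 and 0.1, Slc2a2 was at 0.0060 and 0.0059 in Tsc1 L-/- against control, Ppargc1a at 0.086 and 0.13 in Cpt2 L-/- against control, Pcx at 0.0097 and 0.0098 in DKO against Tsc1 L-/-, and Pck2 at 0.28 and 0.042 in the interaction of Tsc1 and Cpt2. G6pc was at −0.025 and −0.039 in Cpt2 Ppara KO against Cpt2 L-/- and at −0.23 and −0.25 against Ppara KO. With a library left out, the Tsc1 L-/- against control difference ran from −0.13 to 0.021 for Fbp1, from −0.25 to 0.090 for Slc2a2 and from −0.11 to 0.44 for Ppargc1a, and that of Cpt2 L-/- against control from −0.27 to 0.20 for Ppargc1a. In DKO against Cpt2 L-/- it ran from −0.32 to 0.35 for G6pc and from −0.036 to 0.20 for Slc37a4, and in the interaction of Tsc1 and Cpt2 from −0.38 to 0.18 for Pck2 and from −0.14 to 0.85 for Pklr. In Cpt2 Ppara KO against Cpt2 L-/- it ran from −0.34 to 0.086 for Pck1, −0.076 to 0.71 for G6pc and −0.054 to 0.31 for Slc37a4, and against Ppara KO from −0.38 to 0.25 for Fbp1, −0.42 to 0.37 for G6pc and −0.34 to 0.050 for Slc2a2.

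Libraries with the same replicate number did not deviate together in all 4 pairs of any comparison (r from −0.26 to 0.17), so the numbers were not taken as pairs. With the replicate number as a block, Pklr in DKO against Cpt2 L-/- (1.28, edgeR adjusted p = 0.0253) and Fbp1 in Ppara KO against control (−0.71, edgeR adjusted p = 0.04999) were called, G6pc in Cpt2 Ppara KO against Ppara KO was at −0.14, and the count of all genes called in Tsc1 L-/- against control was 808 in place of 906. The block changed no other call of the 9 genes.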
